A study of Mus musculus with 8 samples.

Results

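The 10 genes described here encode calcium-binding and calmodulin-binding proteins that neuroanatomists use as labels of neuron classes or, for S100b, of glia: Calb1, Calb2, Pvalb, Hpca, Ncald, Necab1, Necab2, S100b, Nrgn and Pcp4. They were chosen by symbol, with earlier results of these data known, and are 10 of the 31053 genes counted in each library. Single-cell RNA sequencing (10x Chromium, droplets with barcoded beads) of striatum and prefrontal cortex (PFC) gave 8 libraries, with 2 WT and 2 Setd1a+/- libraries in each tissue. All mice were male C57BL/6N animals whose labelled age was 8 to 10 weeks, although the study's methods give an older age, none was treated, and the tissue of 2 mice was pooled in each library. The Setd1a+/- mice carry a germline CRISPR-Cas9 frameshift deletion in 1 of their copies of Setd1a, a histone H3K4 methyltransferase, just ahead of its catalytic SET domain, and the WT mice were littermates. The labels of the striatal samples name the nucleus accumbens and the study's methods name the dorsal and ventral striatum, so the tissue is called striatum here. The cells were dissociated with papain, so only neurons that survive that treatment are seen.

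Most of these proteins bind calcium through EF-hands, helix-loop-helix folds in which acidic side chains of the loop hold the ion. Calbindin (Calb1), calretinin (Calb2) and parvalbumin (Pvalb) act mainly as buffers that shape calcium transients, and each is a classical marker of a GABAergic interneuron class, calbindin also of medium spiny neurons (MSNs). Hippocalcin (Hpca) and neurocalcin delta (Ncald) are neuronal calcium sensors that move to membranes when they bind calcium, the NECAB proteins (Necab1, Necab2) pair an EF-hand domain with a monooxygenase-type domain, and S100b is a small dimer of glia. Neurogranin (Nrgn) and PEP-19 (Pcp4) do not bind calcium with EF-hands but hold calmodulin through a short IQ motif.

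The coding sequences (GENCODE vM21, GRCm38) show how the members differ. For each member the transcript ranked highest as principal isoform was taken, and the longest among equals. One EF-hand loop each is printed for the buffers and the sensors, with the first and last codons of the loop in capitals, and the IQ core for both calmodulin-binding proteins, with the codon pair that names the motif in capitals. All are written 5′ to 3′ on the coding strand, with the codon numbers of the stretch.
Calb1 loop, codons 24 to 35: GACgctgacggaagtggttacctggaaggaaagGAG
Calb2 loop, codons 29 to 40: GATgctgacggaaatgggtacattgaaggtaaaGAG
Pvalb loop, codons 52 to 63: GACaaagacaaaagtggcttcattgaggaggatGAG
Hpca loop, codons 73 to 84: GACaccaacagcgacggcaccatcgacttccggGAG
Ncald loop, codons 73 to 84: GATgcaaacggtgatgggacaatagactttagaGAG
Nrgn IQ core, codons 33 to 43: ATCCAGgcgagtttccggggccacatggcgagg
Pcp4 IQ core, codons 46 to 56: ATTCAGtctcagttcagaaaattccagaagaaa

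A search with the standard EF-hand loop pattern found 5 loops in Calb2, 4 in Calb1, 3 each in Hpca and Ncald, 2 each in Pvalb and Necab2, 1 each in Necab1 and S100b, and 0 in Nrgn and Pcp4. Of 21584 genes, each taken with its longest coding sequence, 217 (1.01%) held at least 1 such loop and 97 (0.449%) held 2 or more. The IQ core was found once in Nrgn, Pcp4 and Necab1, but it is a loose pattern that 1952 genes (9.04%) match. The coding sequences of Hpca and Ncald are 193 codons each and share 455 of 579 bases (78.6%), so the sensors printed above are close relatives whose levels differed by cell type as given below. The genes lie apart in the genome except for a pair on chromosome 4, Necab1 (chr4:14952245-15149794, minus strand) and Calb1 (chr4:15881264-15908064, plus strand). The others are Hpca (chr4:129111570-129122036, minus), Calb2 (chr8:110137502-110168210, minus), Necab2 (chr8:119446719-119472640, plus), Nrgn (chr9:37544492-37552904, minus), S100b (chr10:76253853-76261159, plus), Ncald (chr15:37366175-37792570, minus), Pvalb (chr15:78191114-78206400, minus) and Pcp4 (chr16:96467606-96525793, plus).

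The libraries held between 15154268 and 26277553 unique molecular identifiers (UMIs, 1 per captured RNA molecule) over all droplets, and the authors annotated 8997 PFC and 14690 striatal cells, between 1508 and 4361 per library, with a median of 2302.5 to 3042 UMIs per cell. Levels below are CPM, the UMIs of a gene per 1000000 UMIs added up over a library's cells of 1 type, and means are over the 4 libraries of a tissue. Pairs of libraries shared between 1 and 24 cell barcodes. Setd1a was lower in both Setd1a+/- libraries than in both WT libraries of the striatum (9.16 and 12.5 against 13.4 and 15.2 CPM over all annotated cells), while the PFC groups overlapped (5.59 and 9.33 against 8.45 and 11.2 CPM). The marker genes of a type were highest in that type for 24 of 24 markers in the PFC and 29 of 31 in the striatum. The exceptions were Gad2 and Slc32a1, markers of GABAergic cells, which were highest in D1 MSN. Cells annotated as striatal interneurons also held excitatory neuron markers such as Slc17a7 and Neurod6 at a summed 259 to 391 CPM, against at most 10.6 CPM in any other striatal type and at most 25.9 CPM in PFC interneurons, and the difference of each member between tissues is therefore given for interneurons with and without such cells. The second striatal Setd1a+/- library held few glia, with 31 astrocytes, 67 oligodendrocytes and 24 microglia. Droplets of 1 to 100 UMIs that are not annotated cells give the free RNA, and their level is printed where it is high for a member.

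**Figure D1:**
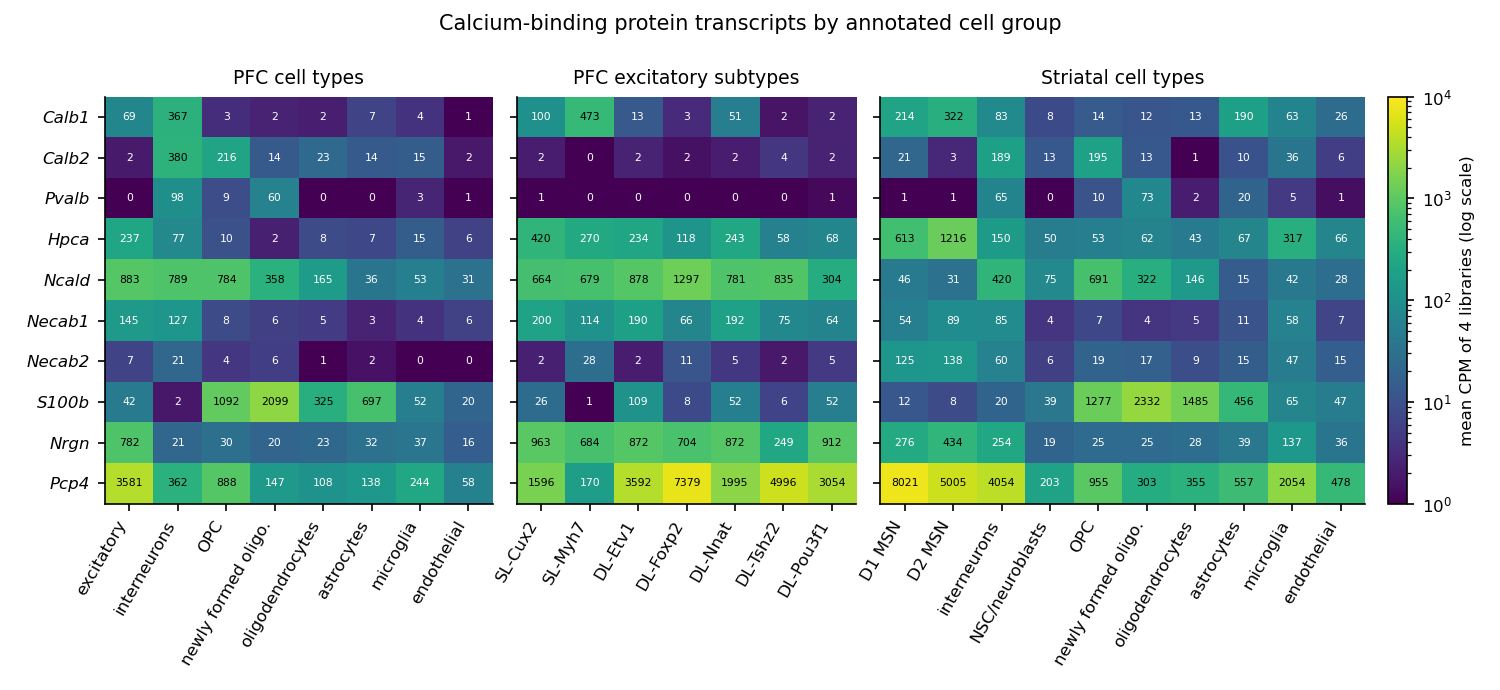
Mean level of each gene (rows) in each annotated cell group (columns) of the PFC, the excitatory subtypes of the PFC and the striatum, in CPM averaged over 4 libraries on a log colour scale with the value printed. Calb2 and Pvalb were high in interneurons and in a cell of the oligodendrocyte lineage each (216 CPM in PFC progenitors, 60 CPM in PFC newly formed oligodendrocytes), S100b was high in glia, and Pcp4 reached 8021 CPM in D1 MSN.

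The order of levels among cell types is a description with no test, because the cells were clustered on gene expression in these same libraries. Per the study's methods the most variable genes of each sample were used. Which members were among them is not given in the sources used here. Calb1, the calbindin gene, was highest in PFC interneurons among PFC types and in D2 MSN among striatal types. In PFC interneurons it stood at 269 and 335 CPM in the WT libraries and 486 and 377 CPM in the Setd1a+/- libraries, against a mean of 69.1 ± 29.1 CPM (SD, n = 4) in excitatory neurons and at most 17.1 CPM in any glial, microglial or endothelial sum of a PFC library. Within the excitatory neurons 633 of 1223 Calb1 UMIs were in SL-Myh7, 367 in SL-Cux2 and 154 in DL-Nnat neurons. SL-Myh7 neurons held 461 and 337 CPM in the WT libraries against 675 and 419 CPM in Setd1a+/- libraries, and 88.1% of them had a Calb1 UMI (38.4% after each cell was thinned to 1000 UMIs). SL-Cux2 neurons followed with 100.4 CPM and DL-Nnat neurons with 50.5 CPM, and these neighbours overlapped, while DL-Foxp2 neurons held 2.98 CPM. The range of SL-Myh7 lay above that of SL-Cux2 in all libraries. Near-empty PFC droplets held 46.3 and 51.6 CPM of Calb1 in the WT and 65.1 and 79.8 CPM in the Setd1a+/- libraries.

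In the striatum Calb1 was 272 and 359 CPM in the WT and 328 and 327 CPM in the Setd1a+/- libraries of D2 MSN, and 181, 230, 200 and 247 CPM in the same libraries of D1 MSN. The D2 range lay above the D1 range in full. Calb1 UMIs were found in 54.8% of D2 MSN and 31.8% of D1 MSN, or 25.1% and 14.6% after thinning, beside 16.7% of striatal interneurons. Striatal astrocytes came next with 97.9 and 63.2 CPM in the WT libraries against 101 and 499 CPM in Setd1a+/- libraries, the highest value being that of the library with 31 astrocytes. Near-empty striatal droplets held 124 to 190 CPM of Calb1.

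Calb2, the calretinin gene, had its highest PFC mean in interneurons, at 223 and 333 CPM in the WT libraries against 597 and 367 CPM in Setd1a+/- libraries. Oligodendrocyte progenitors (OPCs) were next, with 226, 215, 229 and 193 CPM in the same order, and in the striatum they matched the interneurons (194.8 ± 19.8 against 188.5 ± 42.7 CPM, SD, n = 4). The spread over the 8 OPC sums was small, from 173 to 229 CPM, so that OPCs of both tissues and both genotypes held like amounts. In the PFC 29.8% of OPCs had a Calb2 UMI (18.1% thinned, median depth 1403 to 1919 UMIs), against 2.94% of astrocytes (0.672% thinned, median depth 1744 to 2129 UMIs). The UMIs were also spread differently. In interneurons 57 of 298 cells held all 625 UMIs, with a median of 10 per positive cell, whereas in OPCs 404 of 1337 cells held 504 UMIs. Near-empty PFC droplets held 15.3 CPM at the lowest and 132 CPM in the second WT library, which was also the library in which oligodendrocytes showed 85.0 CPM of Calb2 (1.74, 5.10 and 0 CPM in the others). Those 85.0 CPM were 69 UMIs in 14 of its 375 oligodendrocytes. Excitatory subtypes held at most 17.1 CPM in any library.

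Pvalb, the parvalbumin gene, was low in these libraries. PFC interneurons held 117 and 189 CPM in the WT libraries against 86.5 and 0 CPM in Setd1a+/- libraries. The 0 was over 60 interneurons, and 25 of 298 PFC interneurons had a Pvalb UMI. A single cell reached 53 UMIs, and the 14 cells with at least 3 UMIs held 91.4% of all. Striatal interneurons held 54.5 and 74.8 CPM in the WT libraries against 32.0 and 98.1 CPM in Setd1a+/- libraries, from 53 of 821 cells. Newly formed oligodendrocytes held Pvalb at a like level, 56.5 and 51.0 CPM in the WT libraries against 62.4 and 71.7 CPM in Setd1a+/- PFC libraries, but spread over 44 of 295 cells with 53 UMIs in all. The share of cells with a UMI there was 15.3% (5.52% thinned), against 1.60% of PFC OPCs. In striatal newly formed oligodendrocytes the libraries spread more widely, from 17.0 to 138 CPM. Near-empty droplets held 10.98 to 30.9 CPM over both tissues.

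Hpca, the hippocalcin gene, was highest in D2 MSN. The D2 sums were 1169 and 1454 CPM in the WT libraries against 1173 and 1066 CPM in Setd1a+/- libraries, and the D1 sums were 563, 738, 576 and 574 CPM, so that each D2 value lay above each D1 value. A Hpca UMI was found in 93.1% of D2 and 71.2% of D1 MSN (66.2% and 40.1% thinned) and in 41.6% of striatal interneurons. In the PFC the excitatory neurons led with 236.9 ± 95.9 CPM (SD, n = 4), and the libraries differed by replicate, with 188 and 131 CPM in the libraries of replicate 1 and 284 and 345 CPM in those of replicate 2. SL-Cux2 was the highest subtype at 361 and 530 CPM in the WT libraries against 242 and 545 CPM in Setd1a+/- libraries. It overlapped SL-Myh7 (270 CPM), DL-Nnat (243 CPM) and DL-Etv1 (234 CPM), all above DL-Foxp2 (118 CPM) in the mean. Near-empty droplets held 76.9 to 301 CPM in the PFC and 658 to 996 CPM in the striatum, which is above every striatal type but D2 MSN in the mean.

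Ncald, the close relative of Hpca, had another distribution. It was 883 CPM in excitatory neurons, 789 CPM in interneurons and 784 CPM in OPCs of the PFC, and these 3 overlapped. In D1 and D2 MSN, where Hpca was highest in the striatum, it was 46.3 and 30.7 CPM. DL-Foxp2 neurons had the highest Ncald of any group, with 1347 and 1259 CPM in the WT libraries against 1295 and 1289 CPM in Setd1a+/- libraries, clear of DL-Etv1 (822 to 906 CPM). The oligodendrocyte lineage of the PFC went from 784 CPM in progenitors over 358 CPM in newly formed cells to 165 CPM in oligodendrocytes with no overlap between neighbours, and in the striatum from 691 over 322 to 146 CPM. Of PFC OPCs 72.2% had a Ncald UMI and 54.1% after thinning, although near-empty PFC droplets held 361 to 559 CPM. In the striatum, where those droplets held 65.6 to 83.7 CPM, the shares were 66.4% and 49.0%.

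Necab1 was a neuronal transcript of both PFC classes, at 144.8 ± 24.6 CPM in excitatory neurons and 127.2 ± 19.6 CPM in interneurons (SD, n = 4), which overlapped, against at most 8.08 CPM in the mean of any other PFC type. SL-Cux2, DL-Nnat and DL-Etv1 held 200, 192 and 190 CPM and could not be told apart, and DL-Foxp2 and DL-Tshz2 held 65.9 and 74.7 CPM. Near-empty PFC droplets held 71.5 to 121 CPM of Necab1. Necab2 was low in the PFC and present in MSNs. Its highest PFC type was interneurons, with a mean of 21.0 CPM. Their WT and Setd1a+/- libraries held 8.57 and 4.44 CPM in replicate 1 and 27.9 and 43.0 CPM in replicate 2. Necab2 was higher in MSNs. It stood at 130 and 145 CPM in the WT libraries against 140 and 135 CPM in Setd1a+/- libraries of D2 MSN and at 123, 139, 109 and 127 CPM in D1 MSN, overlapping ranges, while PFC excitatory neurons held 2.14 to 12.2 CPM. SL-Myh7 was its highest PFC subtype at 28.3 CPM, with a range from 6.17 to 53.0 CPM. Near-empty striatal droplets held 141 to 189 CPM of Necab2, at or above the level of both MSN types.

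S100b marked the oligodendrocyte lineage and astrocytes. Newly formed oligodendrocytes held 2345 and 2128 CPM in the WT libraries against 1833 and 2089 CPM in Setd1a+/- libraries of the PFC, and 2347, 2138, 2803 and 2042 CPM in the striatum. In the PFC the order below them was OPCs (1092 ± 47.4 CPM), astrocytes (697 ± 82.3 CPM) and oligodendrocytes (325 ± 43.9 CPM, SD, n = 4), and none of these neighbours overlapped. Interneurons were lowest among PFC types, with 3 UMIs in 298 cells. Among the excitatory subtypes DL-Etv1 had the highest mean, at 109 CPM (81.7 to 129 CPM), above the 52.4 CPM of DL-Nnat.

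**Figure D2:**
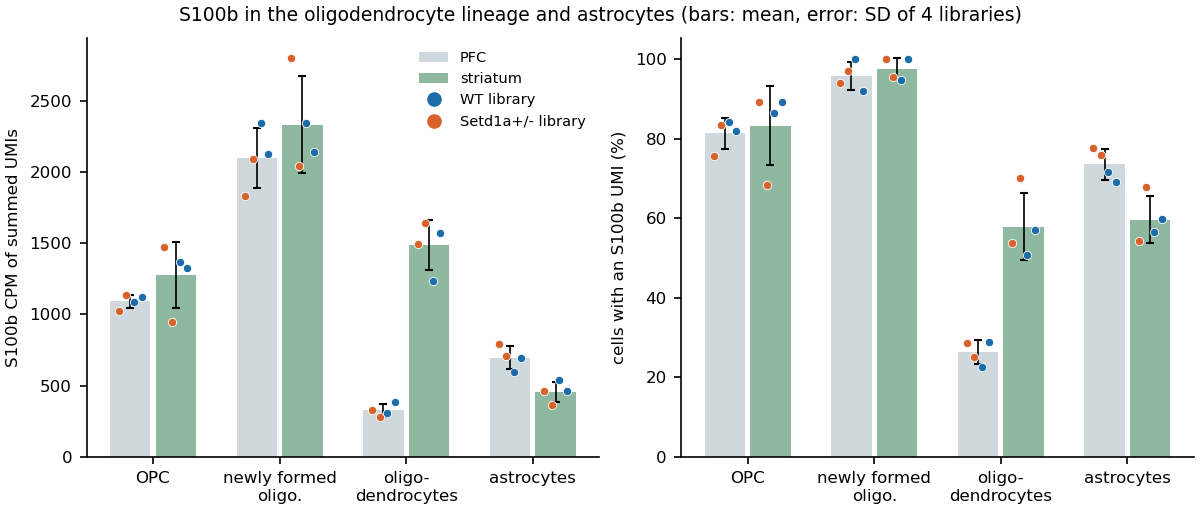
S100b in CPM of summed UMIs (left) and as percent of cells with a UMI (right) for 4 glial types, with bars for the mean of 4 libraries, error bars for the SD and points for libraries. Oligodendrocytes of the striatum held 1236 to 1643 CPM and those of the PFC 283 to 385 CPM, while newly formed oligodendrocytes and progenitors overlapped between the tissues.

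Nrgn, the neurogranin gene, separated excitatory neurons from interneurons in the PFC. Excitatory neurons held 692 and 951 CPM in the WT libraries against 579 and 907 CPM in Setd1a+/- libraries, and interneurons 14.3, 31.9, 15.5 and 23.2 CPM. A UMI was found in 86.4% of excitatory neurons (44.4% thinned). Among subtypes DL-Tshz2 stood apart as the lowest, with 212, 305, 176 and 304 CPM, while the other 6 had means from 684 to 963 CPM and overlapped. Striatal D2 MSN held 343, 527, 542 and 322 CPM and D1 MSN 212, 337, 304 and 251 CPM, which overlapped. Near-empty droplets held 282 to 876 CPM in the PFC and 296 to 568 CPM in the striatum.

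Pcp4, the PEP-19 gene, had the highest levels among the PFC subtypes, with means from 169.8 to 7379 CPM. DL-Foxp2 neurons held 5642 and 7684 CPM in the WT libraries against 8469 and 7722 CPM in Setd1a+/- libraries, above DL-Tshz2 neurons (4161, 5056, 5454 and 5313 CPM) in all libraries. SL-Myh7 neurons, the subtype with the most Calb1, held 150, 284, 114 and 131 CPM, below each other subtype. D1 MSN held 7377 and 7917 CPM in the WT libraries against 9169 and 7623 CPM in Setd1a+/- libraries, and D2 MSN 4519, 5276, 5885 and 4341 CPM, without overlap. Striatal interneurons followed at 4054 ± 310 CPM (SD, n = 4). OPCs held 888 CPM in the PFC and 955 CPM in the striatum, and striatal microglia 2054 CPM. PFC endothelial cells held 57.8 CPM. Free RNA was highest for this gene, at 2172 to 3933 CPM in near-empty PFC droplets and 5031 to 6285 CPM in striatal ones. Its part in the levels of glia was not tested.

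The genes whose levels ran most closely with a member over the 24 cell groups (Pearson r of log2(mean CPM + 1) among 7780 genes that reached a mean of 50 CPM in some group) were named as a description, since groups of 1 tissue share their libraries. Calb1 ran with Gpr83 (0.87), Cpne5 (0.82) and Kcnip2 (0.80), Calb2 with Adarb2 (0.85), Erbb4 (0.84) and Nxph1 (0.82), and Pvalb with Slc5a7 (0.82), Cplx3 (0.81) and Erbb4 (0.77). For the sensors these were Gabrd (0.94), Psd (0.94) and Cpne5 (0.93) with Hpca, and 1700025G04Rik (0.89), Tmem196 (0.88) and Gria4 (0.88) with Ncald. Necab1 ran with the synaptic vesicle and fusion genes Nsf (0.97) and Snap25 (0.97), and Necab2 with Strip2 (0.88), Rgs9 (0.87) and Kcnip2 (0.87). S100b ran with Taf13 (0.89), Nkx2-2 (0.88) and Cyp2j6 (0.88), Nrgn with Cnksr2 (0.96), Nefl (0.96) and Kcnv1 (0.95), and Pcp4 with Ryr3 (0.89), Olfm3 (0.88) and Matk (0.87). Among the members themselves the highest r was 0.86 between Nrgn and Necab1 and the lowest was -0.67 between S100b and Necab1.

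The 3 buffers were counted together in each interneuron, as a description with no test of whether they fell in separate cells. Of 298 PFC interneurons 149 had a UMI of none of Calb1, Calb2 and Pvalb, 130 of 1 of them, 19 of 2 and 0 of all 3, and of 821 striatal interneurons the numbers were 511, 262, 43 and 5. PFC interneurons with a Calb1 UMI had a UMI of Sst, the somatostatin gene, in 80 of 86 cells (93.0%), against 12.7% of the 212 without (median depths 5960 and 5009.5 UMIs). Those with a Calb2 UMI had a UMI of Vip, the gene of vasoactive intestinal peptide, in 31 of 57 (54.4%) against 11.6% of the rest, although their median depth was lower (4392 against 5458 UMIs), and of the serotonin receptor gene Htr3a in 22.8% against 4.15%. Of the 25 PFC cells with a Pvalb UMI 0 had a Vip UMI and 5 a Sst UMI, against 21.6% and 37.4% of the 273 without. Cck was found in 17 of the 25 (68.0%) against 37.0%, and Th in 3 (12.0%) against 1.47%. Median depths were 6428 UMIs with and 5048 without a Pvalb UMI. Striatal cells with a buffer UMI are given side by side with these and not compared. Near-empty striatal droplets held more Calb1 (124 to 190 CPM) than striatal interneurons did (39.4 to 120 CPM), and 43 of the 141 striatal cells with a Calb1 UMI held 3 or more. The part of free RNA in the shares was not tested. All annotated striatal interneurons are counted, cells with an excitatory marker UMI and no GABA marker UMI (described below) included. Their part in the shares was not tested either. In the striatum Sst was found in 23.4% of the 141 Calb1 cells and 20.3% of the 680 others, whereas Chat, the acetylcholine synthesis gene, was found in 12.1% against 0.147%. Kit, a receptor tyrosine kinase, was found in 46 of 53 Pvalb cells (86.8%) against 24.0%, while in the PFC it was found in 1 of 25 (4.00%) against 43.6%. Th, the tyrosine hydroxylase gene, was found in 16.6% of the 169 striatal Calb2 cells against 7.82% of the others.

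Pcp4 differed among striatal interneurons by the class gene they held. It was 10033 CPM over the 99 cells with a Nos1 UMI (nitric oxide synthase), 7198 CPM over the 160 with Npy and 6942 CPM over the 171 with Sst, against 3110 CPM over 79 Th cells, 2043 CPM over 169 Calb2 cells and 1469 CPM over 53 Pvalb cells. In the PFC the 41 Nos1 cells held 439 CPM and the 107 Sst cells 432 CPM. These sums pool all annotated interneurons of 4 libraries, excitatory marker cells included, and are given without a test.

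The cells annotated as striatal interneurons fell in groups by the markers they held. Of the 821 cells 609 had a UMI of Gad1, Gad2 or Slc32a1 and none of the excitatory markers, 44 had both, 15 had neither, and 153 had an excitatory marker UMI and no GABA marker UMI, 16.4 to 21.0% of the cells in each library. In the PFC the same numbers were 273, 22, 3 and 0. Several members differed in the mean between the 2 large striatal groups. Nrgn was 99.6 CPM (67.3 to 140) in the GABA marker cells and 622 CPM (570 to 681) in the excitatory marker cells, and Ncald 303 against 683 CPM. Pvalb was 96.6 against 0.820 CPM, Necab2 81.1 against 8.06 CPM, Calb1 113 against 21.2 CPM, and Pcp4 3279 against 5311 CPM. The groups were made from cells of the same 4 libraries by genes measured in them, so these levels are a description.

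**Figure D3:**
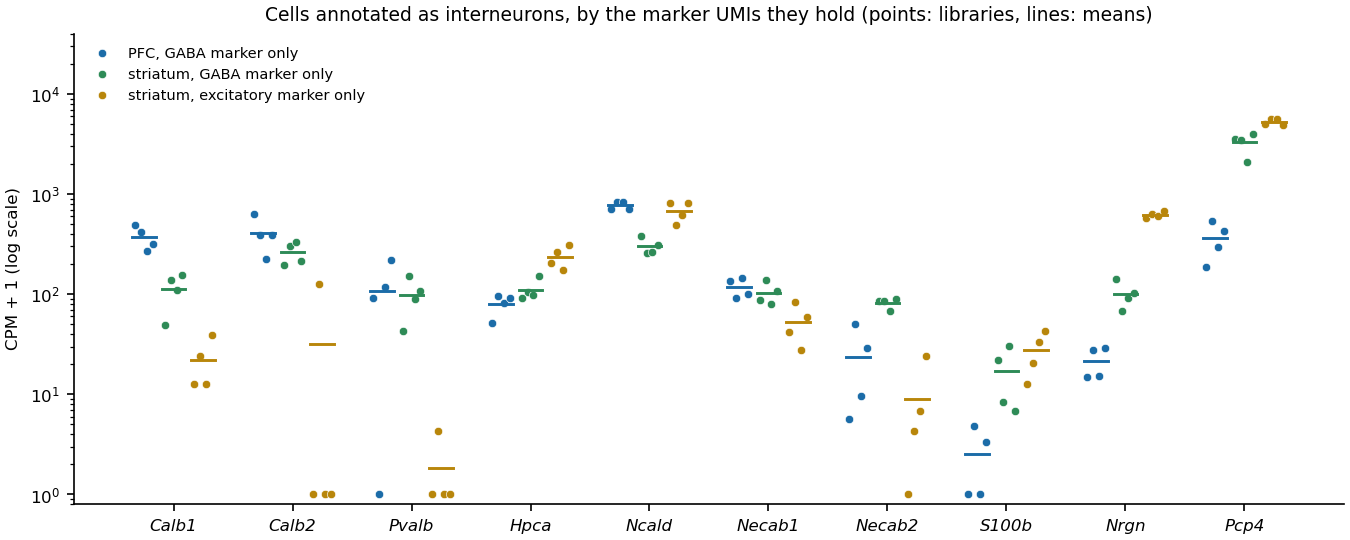
Levels of the 10 genes (CPM + 1, log axis) in cells annotated as interneurons, split by the marker UMIs they hold, with a point per library and a line at the mean. In the striatum the excitatory marker cells held more Nrgn (622 against 99.6 CPM) and less Pvalb, Calb1, Calb2 and Necab2 than the GABA marker cells, and Pcp4 was above 2000 CPM in both.

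The comparison of the tissues asks whether the same annotated type held a member at another level in striatum than in PFC. Cells were clustered within each tissue, so the contrast was not used to define the types, but tissue and library preparation cannot be told apart. The summed UMIs were compared by the quasi-likelihood test of edgeR with genotype as a covariate and Benjamini-Hochberg adjustment over all genes of a type, and a call needed an FDR under 0.05 and a fold change above 1.5. Over 7 shared types 53 member sums passed the count filter and 27 were called, 23 higher and 4 lower in striatum, beside 7.49% of all gene tests (4.81% higher and 2.68% lower). A member that passes the filter through 1 tissue alone had to differ, so that count is a description. By type the members called were 8 of 10 in interneurons (12.0% of all genes), 6 of 9 in microglia (20.7%), 6 of 8 in endothelial cells (7.31%), 4 of 6 in astrocytes (12.6%), 3 of 7 in oligodendrocytes (3.12%), 0 of 9 in OPCs (0.336%) and 0 of 4 in newly formed oligodendrocytes (0.0797%). At an unadjusted p under 0.05 there were 3 members in OPCs and 0 in newly formed oligodendrocytes. The 3 were Hpca, Necab2 and Calb1, at log2 fold changes of 2.18, 2.25 and 1.88 (FDR 0.0842, 0.0621 and 0.194). DESeq2 called Hpca in OPCs (FDR 0.00866) and 0 members in newly formed oligodendrocytes, and a block for the replicate number called Hpca (FDR 0.00608) and Necab2 (FDR 0.0314) in OPCs. No source used here says that the same number marks the same mice in both tissues. Hpca held 25 UMIs in PFC and 111 in striatal OPCs and Necab2 10 and 51, so both entered the test mostly through the striatum and these calls are a description. Neither was called in OPCs without neuron marker UMIs (Hpca 1.99, FDR 0.186, and Necab2 2.32, FDR 0.159), and the MSN markers summed to 248 to 377 CPM in striatal and 62.6 to 84.9 CPM in PFC OPCs.

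S100b was higher in striatal than in PFC oligodendrocytes. It was 307 and 385 CPM in the WT libraries against 326 and 283 CPM in Setd1a+/- libraries of the PFC, and 1236, 1568, 1495 and 1643 CPM in the striatum. No striatal library overlapped a PFC library, and the log2 fold change was 2.21 (SE 0.17, FDR 3.9e-05, edgeR), the smallest p of 7820 genes tested in oligodendrocytes. Both the share of positive cells and the amount in each were higher. A S100b UMI was found in 22.7 to 28.8% of PFC and 50.8 to 70.1% of striatal oligodendrocytes, at median depths of 1888 to 2190.5 and 2035 to 2124 UMIs. After thinning to 1000 UMIs the shares were 14.5 to 23.2% and 42.7 to 61.2%, and positive cells held a mean of 2.57 to 3.37 and 5.55 to 6.86 UMIs. Near-empty droplets held 158 to 283 CPM in the PFC and 65.7 to 183 CPM in the striatum, ranges that overlapped, and their part was not tested. Among oligodendrocytes without a UMI of 9 neuron markers the log2 fold change was 2.10 (SE 0.17, FDR 6.56e-05), again first by p, of 6589 genes. The mature markers Mog (2479 and 2130 CPM), Mbp (12574 and 15373 CPM) and Opalin (2944 and 1310 CPM, PFC first) are given beside it. Their part in the result was not tested. In newly formed oligodendrocytes S100b differed by 0.19 (SE 0.19, FDR 0.793) and in OPCs by 0.25 (SE 0.16, FDR 0.490) on the log2 scale. Astrocytes went down, at 594 to 795 CPM in the PFC and 361 to 536 CPM in the striatum (log2 fold change -0.66, SE 0.21, FDR 0.0478). That call was lost without any 1 of the 8 libraries (FDR 0.055 to 0.134) and with library size in place of TMM factors (FDR 0.0802), without the count filter (FDR 0.0979) and in the cells without neuron marker UMIs (-0.51, FDR 0.106).

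In interneurons both calmodulin-binding members rose in striatum. Pcp4 was 294 and 390 CPM in the WT libraries and 217.5 and 546 CPM in the Setd1a+/- libraries of the PFC, and 3664, 4381, 3970 and 4202 CPM in the striatum (log2 fold change 3.51, SE 0.24, FDR 1.5e-07). In GABA marker cells without UMIs of excitatory markers, Drd1, Drd2 or Adora2a the difference was 3.33 (SE 0.25, FDR 3.36e-07). The means in these restricted cells were 312 and 3042 CPM, and cells with a Pdyn, Tac1 or Penk UMI stayed in. Nrgn was 14.3 to 31.9 CPM in the PFC and 240 to 279 CPM in the striatum (3.56, SE 0.24, FDR 1.24e-07). No PFC interneuron held more than 2 Nrgn UMIs, so it was tested on few PFC UMIs and its calls are a description. In the same restricted cells the difference of Nrgn was 2.10 (SE 0.31, FDR 0.000306) on means of 21.1 and 89.8 CPM. Near-empty droplets held 2172 to 3933 CPM of Pcp4 in the PFC and 5031 to 6285 CPM in the striatum, and 282 to 876 and 296 to 568 CPM of Nrgn, which in the striatum is above the interneurons for both. The part of free RNA in these differences was not tested.

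The other interneuron members are buffers, sensors, NECABs and S100b. Calb1 fell, from 269 to 486 CPM in the PFC to 39.4 to 120 CPM in the striatum (-2.10, SE 0.27, FDR 6.36e-05), and from 345 to 83.3 CPM in the mean of the restricted cells (-1.94, FDR 0.00173). In such sums fewer cells of a class and less RNA per cell cannot be told apart, so Calb1 is also given by cell. A Calb1 UMI was found in 28.0% of PFC and 16.7% of striatal interneurons, and 3 or more in 21.5% and 5.24%. Positive cells held a median of 5 and 1 Calb1 UMIs. Median depths in the libraries were 4546 to 7398.5 and 3799.5 to 5829 UMIs. These shares are over all annotated interneurons, and the part of free RNA in them was not tested. Ncald fell by 0.88 (SE 0.16, FDR 0.00158) and by 1.31 in the restricted cells (FDR 0.00015). Necab2 rose by 1.58 (SE 0.39, FDR 0.0135), and by 2.26 in the restricted cells (FDR 0.0015). Its UMIs were 3, 14, 2 and 13 in the PFC (WT libraries first) and 63, 88, 53 and 57 in the striatum. With so few PFC UMIs its calls are a description. S100b had 3 UMIs in PFC and 89 in striatal interneurons (1.82 and 19.6 CPM). It passed the count filter through the striatum alone and so had to differ, and its calls over all annotated and over the restricted cells (FDR 0.00378 and 0.0192) are a description. Calb2 (-0.94, FDR 0.0119) and Hpca (1.01, FDR 0.00594) were called over all annotated interneurons but not in the restricted cells, where they stood at -0.47 (FDR 0.236) and 0.38 (FDR 0.297). Pvalb (-0.53, SE 0.48, FDR 0.530) and Necab1 (-0.55, SE 0.20, FDR 0.0946) were not called, nor in the restricted cells, where Pvalb had the opposite sign (0.14, SE 0.46, FDR 0.890) and Necab1 stood at -0.32 (SE 0.23, FDR 0.419). The call of Calb2 was lost without striatum Setd1a+/- replicate 1 (FDR 0.0611), and that of Necab2 without PFC WT replicate 1 or striatum WT replicate 2 (FDR 0.0504 and 0.0549).

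In microglia, endothelial cells and oligodendrocytes members were called in cells that also held neuron markers. In microglia Hpca went from 8.86 to 20.3 CPM in the PFC to 147 to 493 CPM in the striatum (4.30, SE 0.45, FDR 0.000167), and Pcp4, Calb1, Necab1, Necab2 and Nrgn were called in the same direction. The 6 MSN markers Drd1, Pdyn, Tac1, Drd2, Adora2a and Penk summed to 1388 to 1987 CPM in striatal microglia and 4.88 to 21.6 CPM in PFC microglia, and to 3650 to 4660 CPM in near-empty striatal droplets. Of the 271 striatal microglia 138 had no neuron marker UMI, 8 in the lowest library, and among them 1 member passed the count filter, Pcp4, with 1.52 (SE 0.58, FDR 0.261). In endothelial cells Necab2, Pcp4, Hpca, Calb1, Nrgn and S100b were called higher in striatum, with MSN markers at a summed 227 to 657 CPM there. Without cells holding neuron markers Pcp4 (1.90, FDR 0.0233), Hpca (2.47, FDR 0.0473) and S100b (1.39, FDR 0.0473) were called. In oligodendrocytes Hpca (2.28, FDR 0.0319) and Necab2 (FDR 0.033) were called on means of 42.6 and 9.07 striatal CPM, and neither was among the restricted cells, where Hpca stood at 2.00 (FDR 0.0562) and Necab2 was under the filter. Many of these members passed the count filter wholly or mostly through the striatum and so had to differ, so their calls are a description. Their UMIs in the PFC and the striatum were 13 and 214 for Hpca, 0 and 39 for Necab2, 2 and 36 for Calb1 and 3 and 37 for Necab1 in microglia, 17 and 333 for Hpca, 1 and 84 for Necab2 and 4 and 110 for Calb1 in endothelial cells, and 28 and 174 for Hpca and 2 and 42 for Necab2 in oligodendrocytes, where the MSN markers summed to 137 to 611 CPM in the striatum and 2.86 to 25.5 CPM in the PFC. Leaving out single libraries lost the calls of Nrgn (5 of 8 libraries, FDR 0.0557 to 0.296) and Necab1 (2, FDR 0.0532 to 0.0875) in microglia, of S100b (6, FDR 0.0582 to 0.174) and Nrgn (4, FDR 0.0582 to 0.226) in endothelial cells, and of Necab2 (5, FDR 0.0514 to 0.167) and Hpca (3, FDR 0.0539 to 0.132) in oligodendrocytes. PFC WT replicate 1 was among the libraries that lost each of these 6 calls. The part of free RNA in these differences was not tested further.

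Calb1 in astrocytes had 5 UMIs in the PFC and 225 in the striatum, so it too passed the filter through the striatum alone and its calls are a description. Few striatal astrocytes held them, 16 of 258 and 15 of 214 in the WT and 26 of 354 and 12 of 31 in the Setd1a+/- libraries. In sums over cells Calb1 stood as follows. It was 0, 3.67, 17.1 and 5.42 CPM in the PFC (WT libraries first) and 97.9, 63.2, 101 and 499 CPM in the striatum (log2 fold change 4.91, SE 0.65, FDR 4.62e-05). Among astrocytes without neuron marker UMIs, 580 of 857 in the striatum, it was 4.52 (SE 0.54, FDR 1.54e-06), while Pcp4 went from 1.89 (FDR 0.0058) to 1.10 (FDR 0.0136). Hpca was called higher in striatum over all annotated astrocytes (log2 fold change 2.28 to 3.35 on leaving out 1 library in turn). No PFC astrocyte held more than 1 Hpca UMI, so that call is a description. In the restricted astrocytes Hpca fell under the count filter. Near-empty striatal droplets held 124 to 190 CPM of Calb1, and the MSN markers summed to 171 to 796 CPM in striatal astrocytes.

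**Figure D4:**
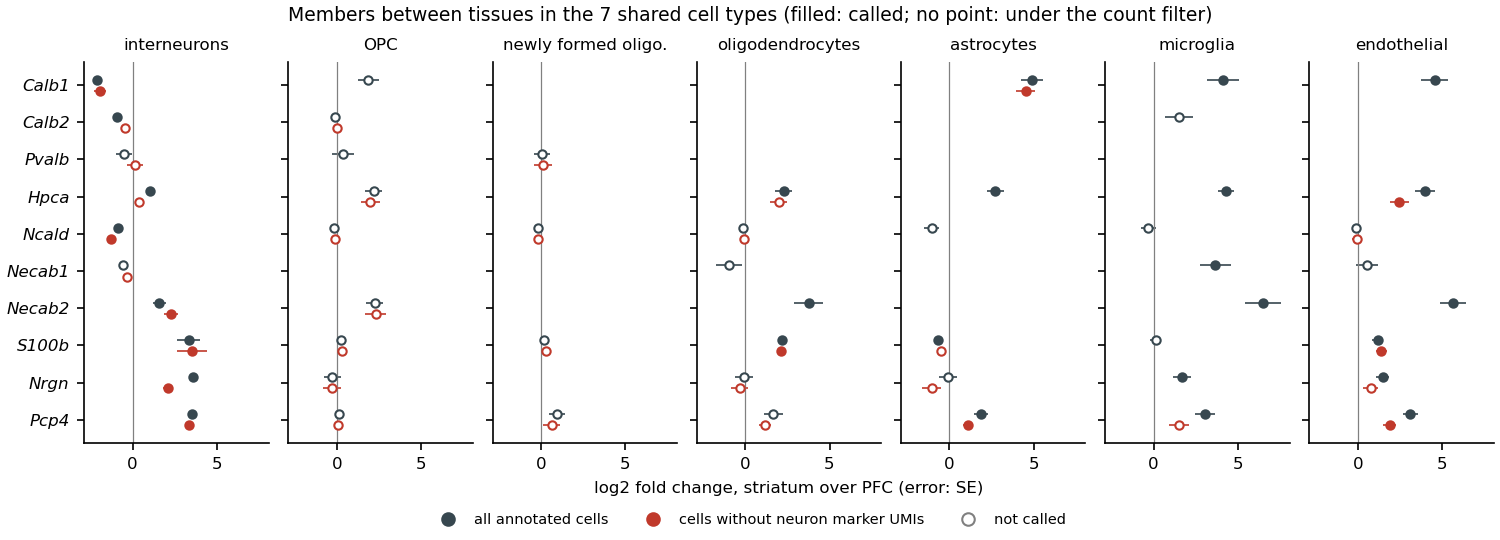
Log2 fold change of each member between tissues (striatum over PFC, error bars SE) in the 7 shared cell types, for all annotated cells and for cells without neuron marker UMIs, with filled points for calls and no point where the counts were under the filter. S100b in oligodendrocytes (2.21 and 2.10), Pcp4 in interneurons (3.51 and 3.33) and Calb1 in astrocytes (4.91 and 4.52, with 5 UMIs in the PFC) were called in both sets of cells, whereas the microglial calls were not made in the second.

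The comparison of genotypes asks whether loss of 1 copy of Setd1a changed the members within a cell type. The same test was used without a covariate on 2 against 2 libraries, with the fold change threshold at 1.5 in the PFC and 2 in the striatum. No member was called: 0 of 42 sums in PFC types (0.0% of all gene tests called), 0 of 39 in PFC excitatory subtypes (0.0%) and 0 of 72 in striatal types (0.00544%, 4 of 73479). At an unadjusted p under 0.05 there were 2, 0 and 5 member sums, beside 1.70%, 1.60% and 2.62% of all gene tests, and DESeq2 called 0 members in each set. With the replicate block 7, 4 and 11 member sums had such a p and 0 were called. The share of all genes at such a p with the block is not given here, so these counts are a description. With 2 libraries in each arm, a missed threshold does not show that the genotypes were alike. Members were higher in Setd1a+/- libraries in 16 of 42, 12 of 39 and 34 of 72 sums, with median log2 fold changes of -0.06, -0.12 and -0.02. The wider list of calcium genes described below was higher in 78 of 162, 93 of 168 and 125 of 252. The WT and Setd1a+/- libraries did not overlap in 10 of 42 (23.8%), 9 of 39 (23.1%) and 9 of 72 (12.5%), where all genes gave 26.4, 26.7 and 31.0%. Replicates separated more often: the libraries of replicates 1 and 2 did not overlap in 23 of 42 (54.8%), 24 of 39 (61.5%) and 45 of 72 (62.5%), against 47.2, 47.2 and 42.3% of all genes.

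Calb1 in PFC excitatory neurons had the smallest p of any member in the PFC. It was 53.3 and 36.8 CPM in the WT libraries against 87.2 and 99.3 CPM in Setd1a+/- libraries, a log2 fold change of 1.08 (SE 0.23, FDR 1.00, edgeR) with rank 2 by p of 11665 genes. Both Setd1a+/- libraries were above both WT libraries, and the same held in SL-Cux2 (105 and 55.8 against 132 and 109 CPM, log2 fold change 0.65, SE 0.31) and DL-Nnat (49.96 and 32.1 against 58.8 and 61.2 CPM). The ranges overlapped in SL-Myh7, in DL-Etv1 (12.1 and 12.1 against 19.9 and 8.56 CPM) and in DL-Foxp2 (4.86 and 2.10 against 2.38 and 2.57 CPM). Of the 11665 genes tested in excitatory neurons, 2752 had no overlap between the genotypes in either direction. The number of SL-Myh7 cells, the subtype with the most Calb1, was 23 of 410 and 52 of 1189 excitatory neurons in WT and 56 of 692 and 63 of 484 in Setd1a+/- libraries. Near-empty droplets of the same libraries held 46.3 and 51.6 CPM of Calb1 in WT against 65.1 and 79.8 CPM in Setd1a+/-. The part of the SL-Myh7 share and that of free RNA in the difference were not tested. Over the PFC and striatal tests together Calb1 was higher in Setd1a+/- libraries in 11 of 14, with a median log2 fold change of 0.43, and Hpca was higher in 2 of 18, with a median of -0.18. Subtypes are part of the excitatory sums, so these tests are not independent.

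Other pairs were singled out by their p alone. Calb2 in PFC interneurons was 223 and 333 against 597 and 367 CPM (0.80, SE 0.33), and Pvalb there was 117 and 189 against 86.5 and 0 CPM (-1.69, SE 0.80). Without the first Setd1a+/- library the arm was at 0 UMIs, and without a count filter Pvalb was called (FDR 0.0291). Pcp4 in SL-Myh7 was 150 and 284 against 114 and 131 CPM (-0.83, SE 0.37) and S100b in SL-Cux2 21.7 and 45.5 against 12.3 and 23.5 CPM (-1.01, SE 0.50), which overlapped. In striatal newly formed oligodendrocytes, of which the libraries held 22 to 58, Pcp4 was 335 and 519 against 104 and 252 CPM (-1.50, SE 0.41) and Ncald 375 and 487 against 219 and 207 CPM (-0.95, SE 0.30). In striatal microglia Calb2 was 75.6 and 55.8 against 13.4 and 0 CPM (-2.57, SE 0.76), from 34 UMIs in 11 cells. None of these passed the adjustment, with edgeR FDRs of 0.807 and 0.958 for Pcp4 and Ncald in newly formed oligodendrocytes and 1.00 for the others.

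**Figure D5:**
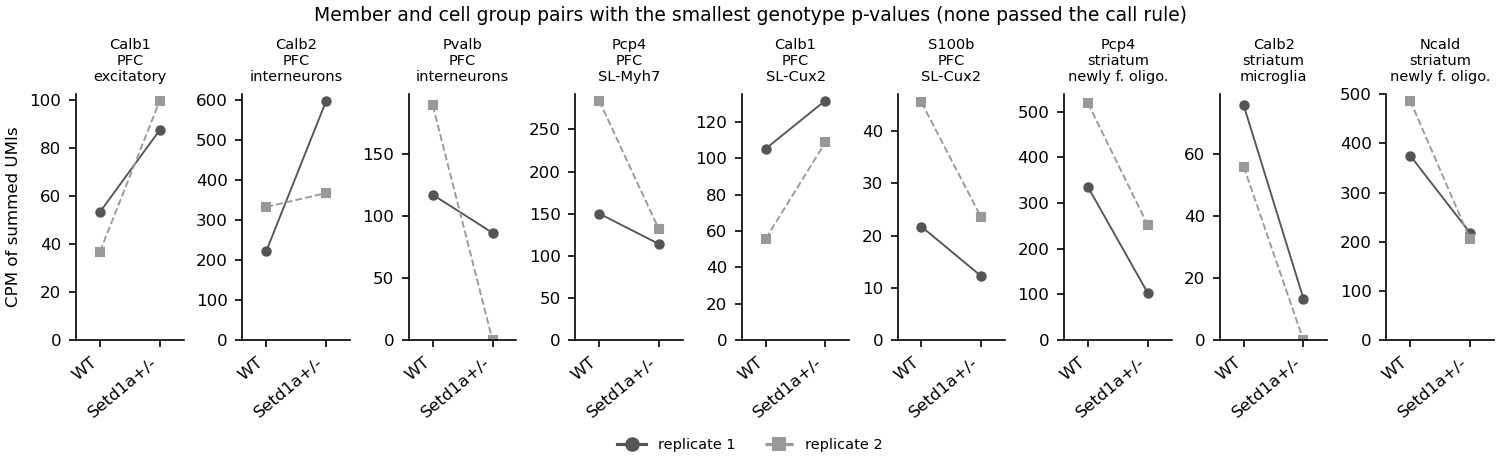
Levels in CPM of summed UMIs in the WT and Setd1a+/- libraries of each replicate for the 9 member and cell group pairs with the smallest p between genotypes, 3 in each set of cell groups, on linear axes from 0. Lines join libraries of the same replicate number. Both lines rise for Calb1 in PFC excitatory neurons and in SL-Cux2 and for Calb2 in PFC interneurons and fall in the other panels, and none passed the call rule.

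Neurons with high levels of a member are given next, beside Calb1 in excitatory neurons and Calb2 and Pvalb in PFC interneurons above, and none passed the test. Hpca in D2 MSN was 1169 and 1454 against 1173 and 1066 CPM (log2 fold change -0.19, SE 0.17), Pcp4 in D1 MSN 7377 and 7917 against 9169 and 7623 CPM (0.17, SE 0.18), and Necab2 in D2 MSN 130 and 145 against 140 and 135 CPM (0.04, SE 0.16). Calb1 in D2 MSN stood at 0.10 (SE 0.18) and in PFC interneurons at 0.53 (SE 0.27). In PFC excitatory neurons Nrgn stood at -0.13 (SE 0.33), Ncald at -0.10 (SE 0.18) and Necab1 at -0.27 (SE 0.22). The genotype effect did not pass the test of a difference between tissues for any member (0 of 53 interaction tests, beside 0.0% of all gene tests, edgeR). At an unadjusted p under 0.05 there was 1 member test and 1103 of 49915 of all genes.

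A wider list of 37 calcium genes, which holds calmodulin, calcineurin, calmodulin kinases, other neuronal sensors, other EF-hand proteins and S100 relatives, was read from the same fits. Between genotypes 0 of 162, 0 of 168 and 0 of 252 tests of the list were called in PFC types, excitatory subtypes and striatal types, with 2, 2 and 10 at an unadjusted p under 0.05 (4, 9 and 19 with the replicate block) and 0 called by DESeq2 in each. Between tissues 9 genes rose and 1 fell of 31 in all annotated interneurons, excitatory marker cells included, with the sensor genes Hpcal1 (2.37, FDR 4.52e-06) and Hpcal4 (1.51, FDR 3.76e-05) leading and Pcp4l1, the relative of Pcp4, lower (-1.34, FDR 0.000153) while Pcp4 rose. In astrocytes 4 rose and 1 fell of 29, led by Pcp4l1 (4.04, FDR 1.61e-05) and S100a11 (4.01, FDR 5.3e-05), where 12.6% of all genes were called and the MSN markers summed to 171 to 796 CPM in the striatum and at most 10.998 CPM in the PFC. In microglia 17 rose and 1 fell of 25, led by the calcineurin gene Ppp3ca (2.55, FDR 0.00025), and in endothelial cells 11 rose of 30, led by the kinase gene Camk2b (2.91, FDR 0.00216), both beside the MSN marker levels given above. In OPCs S100a6 fell (-0.93, FDR 0.0376) and Pcp4l1 rose (2.80, FDR 0.0493) of 27, and in oligodendrocytes the sensor gene Vsnl1 fell (-1.67, FDR 0.0223) and Kcnip2 rose (2.66, FDR 0.0479) of 24, beside the MSN marker levels of both types. In newly formed oligodendrocytes 0 of 13 were called. Of all genes, 12.0% were called in interneurons, 20.7% in microglia and 7.31% in endothelial cells. The shares were 0.336% in OPCs, 3.12% in oligodendrocytes and 0.0797% in newly formed oligodendrocytes. Median log2 fold changes of the list were 0.33 in interneurons, 0.61 in astrocytes, 1.72 in microglia, 0.74 in endothelial cells, 0.21 in OPCs, 0.31 in newly formed oligodendrocytes and 0.09 in oligodendrocytes, against medians between -0.039 and 0.018 over all genes tested. Genes of the list that passed the count filter through the striatum alone had to be higher there, so these counts and medians are a description.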

How the data were processed

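The authors counted reads with Cell Ranger 3.0.2 on mm10, annotated cells in Seurat 3.2.0 (versions per the submitters' processing notes), and deposited raw UMI counts for every droplet barcode of each library, unfiltered and not normalized, with tables that name the library, cell type and subtype of each cell they kept (800 or more genes, mitochondrial share up to 10%). The barcode and gene lists deposited beside the counts hold other information, the names of cells and genes. The authors' normalized or compared values were not used. How the authors treated doublets is not given in the sources used here, and no doublet caller was run. The members and all gene lists were chosen with earlier results of these data known.

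UMIs of the annotated cells were summed per library and cell group with Python 3.11.15, and CPM and the percent of cells with a UMI were computed from them, the latter also after each cell was thinned to 1000 UMIs. Groups needed at least 10 cells in every library, which left out DL-Pou3f1 (7 in the lowest). Sums were tested with edgeR 4.0.16 (R 4.3.3, quasi-likelihood test after TMM scaling, genes kept by filterByExpr at min.count 10, p-values adjusted by Benjamini-Hochberg over all genes of a group, SE as the absolute log2 fold change over the square root of F), with DESeq2 1.42.0 as an alternative. Calls needed an FDR under 0.05 and a fold change above 1.5, or 2 between striatal genotypes, the cutoffs of the study. DEsingle, the study's test over single cells, was left out. Library depth limits the low genes: 3 UMIs are the limit that a count of 0 allows, and counting error alone is covered by it. Each library pools 2 mice, so p-values measure the spread between pools.

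Per the methods a replicate comprised 1 WT and 1 mutant library, and same-numbered libraries were therefore taken as pairs. Across genes their deviations from the genotype means correlated with a median of 0.34 in PFC types (0.15 to 0.58), 0.42 in excitatory subtypes and 0.23 in striatal types (0.11 to 0.40). The study used no block, so the replicate block is an alternative. Members named between genotypes are the 3 pairs with the smallest p in each set of groups, and between tissues all that were called. From a list of 37 other calcium genes, up to 3 called genes per type with the smallest FDR are named, and for each member the 3 genes with the highest Pearson r across cell groups. DL-Nnat was named after its values were seen. The restriction to cells without neuron marker UMIs was added after seeing the data: glia, endothelial cells and microglia with no UMI of excitatory markers (Slc17a7 and Neurod6 among them), Drd1, Pdyn, Tac1, Drd2, Adora2a or Penk, and interneurons with a UMI of Gad1, Gad2 or Slc32a1 and none of the same excitatory markers, Drd1, Drd2 or Adora2a. It kept 83.8 to 93.6% of the cells of a PFC type and 50.9 to 69.1% of those of a striatal type, and microglia were kept in that fit at 8 cells in the lowest library. The edgeR steps were tested on simulated data. The gene positions and coding sequences come from GENCODE vM21 (GRCm38, the assembly also called mm10), in which all 10 gene IDs were found. Some genes and a sequence that these rules select are not reported here.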

Additional observations from a re-analysis of the deposited data

How the results depend on the processing

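No called difference between tissues and none of the 9 pairs named between genotypes by their p changed direction under an alternative. Pvalb between tissues in interneurons, not called, went from -0.53 to 0.14 in cells without neuron marker UMIs, and the cause was not tested. Between genotypes, without a filter on low counts 3 members were called in PFC types (Pvalb in interneurons -1.66, Calb2 in oligodendrocytes -3.80 and Pcp4 in oligodendrocytes -1.39 on the log2 scale), in place of 0. The Calb2 call rested on PFC WT replicate 2, with 69 UMIs in 14 oligodendrocytes, against 3, 4 and 0 UMIs in the other PFC libraries. Leaving out 1 library gave 0 to 1 calls in PFC types and 0 to 2 in striatal types, where the arm of 1 library is assumed to vary like the others. These calls were Pvalb in interneurons without PFC Setd1a+/- replicate 1 (the remaining arm was at 0 UMIs, so no fold is given), Pcp4 in newly formed oligodendrocytes (2.61) without PFC WT replicate 2, Calb1 in endothelial cells (1.53) and Pcp4 in oligodendrocytes (1.55) without striatum Setd1a+/- replicate 1, Hpca in endothelial cells (-1.61) without striatum Setd1a+/- replicate 2, and Pcp4 in newly formed oligodendrocytes (-1.74) without striatum WT replicate 1. The cause was not tested. Excitatory subtypes stayed at 0 in every alternative. With the replicate block the counts of members called between genotypes were 0, 0 and 0 in PFC types, subtypes and striatal types, while all genes gave 26, 11 and 79 calls in place of 0, 0 and 4. Over all genes these counts were 63, 28 and 110 without a filter, 1, 0 and 5 with DESeq2, and 25 to 122, 7 to 306 and 67 to 402 on leaving out 1 library.

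Between tissues, 27 members were called, 12 of 36 tested in cells without neuron marker UMIs (the cause was not tested, and fewer members passed the filter than the 53 of all cells), 30 with the replicate block, 36 without a filter, 28 with DESeq2, 26 with library size factors, 26 without mitochondrial and ribosomal protein genes, and 20 to 31 on leaving out 1 library. Over all genes the tissue calls were 3740 of 49915 tests, against 1653 of 39695 in cells without neuron marker UMIs and 6957 of 112942 without a filter. Over the same 49915 tests they were 4706 with the replicate block, 3273 with DESeq2 and 3742 with library size factors. They were 3693 of 49253 without mitochondrial and ribosomal protein genes, and 2221 to 5013 on leaving out 1 library (54023 to 58025 tests). The member counts under the alternatives are therefore a description. With the block Hpca and Necab2 in OPCs and Pcp4 in oligodendrocytes (1.78, FDR 0.00697) were added. Over the 27 called pairs and 8 libraries left out in turn, a call was kept 179 times and lost 36 times, and S100b in interneurons could not be tested once. The lost calls were S100b in astrocytes (8 of 8 libraries left out) and in endothelial cells (6), Nrgn in microglia (5) and endothelial cells (4), Necab2 in oligodendrocytes (5) and interneurons (2), Hpca in oligodendrocytes (3), Necab1 in microglia (2) and Calb2 in interneurons (1). Thinning can only lower a share of cells with a UMI, and 17 of 20 shares fell by more than the spread between libraries. Necab2 was low in the PFC, where the 2775 excitatory neurons held 129 UMIs (2.14 to 12.2 CPM) at median depths of 5732 to 9177.5 UMIs.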

Other observations

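Striatal neural stem cells and neuroblasts, 437 cells with no counterpart among the PFC types, held little of the members. Pcp4 was 203 ± 29.8 CPM (SD, n = 4), the lowest of the 10 striatal types, with 200.3, 164, 210.5 and 236 CPM in the WT and then the Setd1a+/- libraries. Ncald was 75.3 CPM (47.0 to 106), above D1 and D2 MSN (46.3 and 30.7 CPM), and Calb2 12.8 CPM (8.15 to 17.6).

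Single cells varied widely around the sums of their type. The median D1 MSN had 18 Pcp4 UMIs and the highest cell had 262, and the median PFC excitatory neuron had 15 and the highest cell 237. For Hpca the median was 4 UMIs in D2 MSN and 1 in D1 MSN, and for Calb1 it was 1 and 0.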
